A study of Mus musculus with 18 samples.

Results

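The chemokine ligands and chemokine receptors of mouse skin were examined in non-lesional, chronically UV-irradiated skin (CHR), papilloma (PAP, a benign epidermal outgrowth) and cutaneous squamous cell carcinoma (cuSCC, labelled SCC). Every gene was taken whose symbol begins with Ccl, Cxcl, Ccr or Cxcr and a number, together with Cx3cl1, Cx3cr1, Xcl1 and Xcr1. The table held 46 such genes of 14521 named genes, and 45 of them, 30 ligands and 15 receptors, are described here. The tissues came from 6 littermate female SKH-1E Hairless mice (mice 2, 3, 7, 8, 9 and 10), an outbred strain that carries the hairless mutation and is prone to UV-induced tumours. Each mouse gave 1 CHR, 1 PAP and 1 SCC library, so that n = 6 in each group, and every group, CHR included, had received the same chronic solar-simulated UV exposure, which had ended before the mice were killed. The labels give neither age nor a transgene, no unirradiated skin was analysed here, and whole tissue pieces rather than sorted cells were sequenced.

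Chemokines are small secreted proteins that steer leukocytes by binding receptors coupled to Gi proteins. The CXC, CC, XC and CX3C classes are named after the spacing of their first cysteines. In skin, keratinocytes, fibroblasts, endothelium and resident macrophages make them. CXC ligands with a Glu-Leu-Arg (ELR) stretch draw neutrophils, interferon-induced CXC ligands draw T and NK cells, and CC ligands draw monocytes, dendritic cells, eosinophils and T cell subsets. Most receptors are carried by leukocytes, so that in whole tissue a receptor's level depends both on how many such cells are present and on how much receptor RNA each cell holds, and fewer cells and less RNA per cell cannot be told apart in these libraries.

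Levels are given as normalised reads throughout, that is, read counts recovered from the deposited values and divided by the size factor of the library. Depth, as recovered from the values, ran from 15.4 to 21.0 M reads. All 45 genes had a mean of at least 10 reads, so none was lost to a filter on low values. The keratin genes Krt5 and Krt14 were high in all 18 libraries, in keeping with the tissue label, with medians of 98022, 333606 and 187967 normalised reads of Krt14 in CHR, PAP and SCC. Of the libraries that stood apart for this family, 4 were left out in turn. The CHR library of mouse 10, which enters both comparisons with CHR, was the lowest CHR library for 21 of the 45 genes, against 19.1% of all genes. The papilloma of mouse 10 was the lowest papilloma for 25 of 45, against 28.7% of all genes, and the carcinoma of mouse 7 was the highest carcinoma for 25 of 45, against 19.7% of all genes. The carcinoma of mouse 10 was the lowest carcinoma for 18 of 45, against 25.4% of all genes. It also held 379 summed normalised reads of 6 skeletal muscle markers, where the other 5 carcinomas held 68546 to 185222. The counts of calls without each of these 4 libraries are given with each comparison. The papilloma of mouse 9 was the highest papilloma for 17 of 45 genes, against 20.1% of all genes. The carcinoma of mouse 2 was the lowest carcinoma for 14 of 45, against 14.1%. These libraries were left out only together with the rest of their mouse.

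Papillomas held less RNA of most of the family than CHR. Of the 45 genes, 23 were lower and 1 (Cxcl3) was higher in PAP (limma, with p adjusted by Benjamini-Hochberg over all named genes, under 0.05). Over all 14521 genes, 28.7% were called lower and 22.8% higher in the same comparison, against 51.1% and 2.22% of the family. The median log2 difference was -0.7 for the family and 0 for all genes. These differences are on the log2 of the deposited value + 1, a scale that compresses low levels and so understates the change of weakly expressed genes. Every value printed with an SE is such a fitted log2 difference, lesion against CHR unless SCC is set against PAP. In 16 of the 45 genes all 6 PAP libraries lay below all 6 CHR libraries, which was so for 19.3% of all genes. Among the 23 genes called lower, 19 were lower in 6 of 6 mice. Without the papilloma of mouse 10, 20 genes were called lower and 1 higher, and without the CHR library of mouse 10, the carcinoma of mouse 7 or that of mouse 10 the counts were 24 and 1 each.

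Carcinomas lay between the other groups for many members. In SCC against CHR, 14 of 45 genes were lower and 0 were higher, where 21.4% and 15.1% of all genes were called. For the absence of higher calls, limma gave 1 higher gene at an unadjusted p under 0.05, and limma-voom on the recovered reads also called 0. The comparison shares its CHR libraries with the one above. The family's median log2 difference was -0.31, against -0.02 for all genes. The count of lower genes was 17 without the CHR library of mouse 10, 17 without the papilloma of mouse 10, 18 without the carcinoma of mouse 7, 11 without that of mouse 10, and 9 without mouse 3. The median level followed the order CHR above SCC above PAP in 21 of 45 genes (46.7%), an order seen in 28.4% of all genes. PAP had the highest median for 4 genes (8.89%), namely Ccl4, Ccl8, Ccl28 and Cxcl2, against 38.1% of all genes.

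In SCC against PAP, 4 genes were higher (Ccl9, Ccl12, Cxcl12 and Cxcl13) and 0 were lower, where 4.99% and 0.592% of all genes were called by limma. At an unadjusted p under 0.05 the counts were 18 higher and 0 lower, where 16% of all genes were higher and 6.67% lower at that level, and the median log2 difference was 0.39, against -0.02 for all genes. With the mouse as a block, which uses the fact that each mouse gave all 3 tissues, limma called 8 higher (8.75% of all genes), adding Ccr2, Cxcl14, Cxcr3 and Cxcr6. Limma-voom called 0 genes of the family, as did limma without the papilloma of mouse 10 or without the carcinoma of mouse 7, and in each of these settings 0 of all 14521 genes were called. Without the CHR library of mouse 10, 2 genes were called higher (Ccl9 and Cxcl13), while 12 were called without the carcinoma of mouse 10 (13.7% of all genes). Over the alternatives the highest adjusted p was 0.199 for Ccl9, 0.227 for Ccl12, 0.243 for Cxcl12 and 0.199 for Cxcl13.

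**Figure D1:**
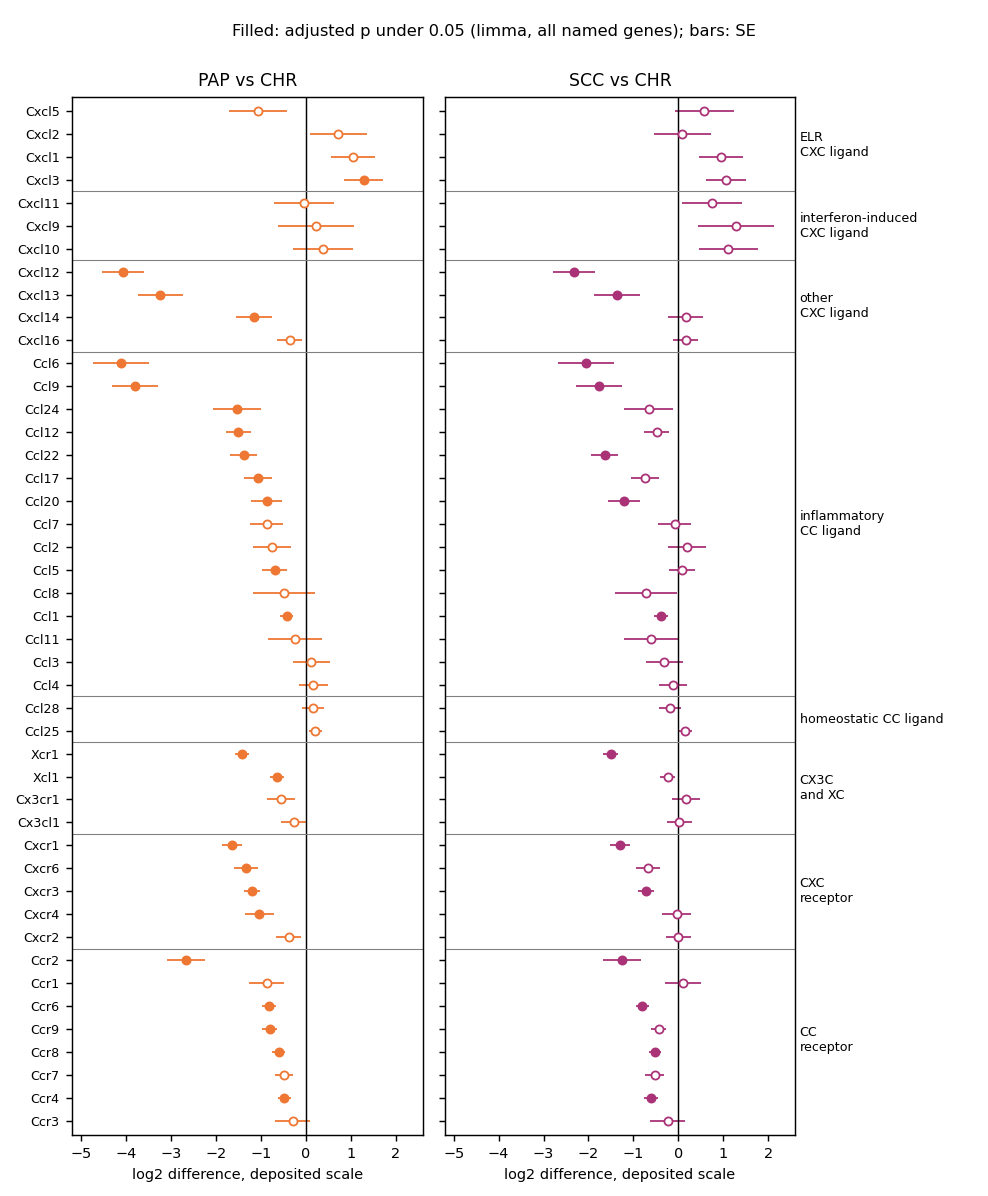
Log2 difference from CHR (x axis, log2 of the deposited value + 1) for the 45 genes (y axis, by class) in PAP (left) and SCC (right); points are fitted differences, bars are SE, n = 6 per group, and filled points have an adjusted p under 0.05. In PAP 23 filled points lie left of 0 and 1, Cxcl3, lies right of it, while in SCC the 14 filled points all lie left of 0.

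**Figure D2:**
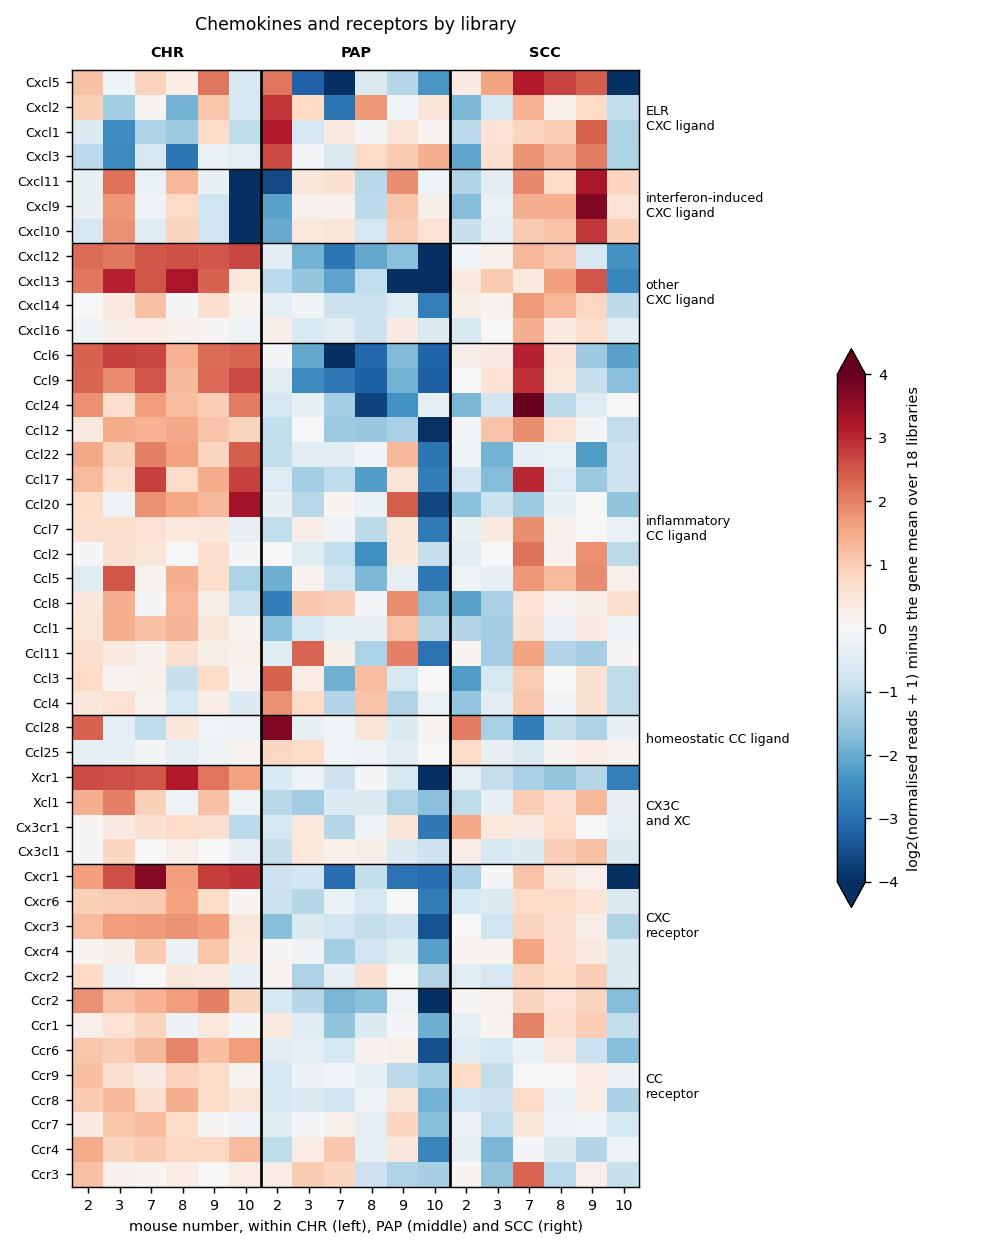
Level of each of the 45 genes (rows, by class) in each of the 18 libraries (columns, by group and mouse number), as log2(normalised reads + 1) minus the gene's mean over all libraries. Red is above and blue below the mean, and colours saturate at the ends of the scale; the papilloma of mouse 10 is the lowest papilloma for 25 genes and the carcinoma of mouse 7 the highest carcinoma for 25.

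Among the ligands, 3 of the 4 CXC ligands outside the ELR and interferon-induced classes were lower in PAP and 2, Cxcl12 and Cxcl13, also in SCC. These shares were 75% and 50%, beside 28.7% and 21.4% of all genes. Cxcl12 (gene at chr6:117168535-117181367, GRCm38), the ligand of Cxcr4 that retains leukocytes and stem cells in tissues and is made largely by fibroblasts and endothelium, read 3106 to 4586 (median 4035) in CHR, 21 to 542 (median 184) in PAP and 138 to 1837 (median 752) in SCC. The CHR libraries did not overlap with either lesion, and the medians were 21.9-fold lower in PAP and 5.37-fold lower in SCC. The fitted log2 difference was -4.07 ± 0.47 (SE), adjusted p = 2e-06, for PAP, and -2.33 ± 0.47 (SE), adjusted p = 0.000985, for SCC. Cxcl13, which draws B cells and helps to form lymphoid aggregates, read 212 to 1525 (median 870.2) in CHR, 1.05 to 80.1 (median 45.1) in PAP and 25.1 to 906 (median 269) in SCC. All PAP libraries were below all CHR libraries, and SCC was lower than CHR in 5 of 6 mice, mouse 9 being the exception. Its log2 differences were -3.24 ± 0.51 (SE), adjusted p = 4.51e-05, in PAP, and -1.37 ± 0.51 (SE), adjusted p = 0.0421, in SCC, and the call in SCC was lost under limma-voom, without the carcinoma of mouse 7 or of mouse 10, and was also lost without mouse 2, 3, 7 or 8 (highest adjusted p over the alternatives 0.158).

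From PAP to SCC, Cxcl12 (log2 difference 1.75 ± 0.47 (SE), adjusted p = 0.0414) and Cxcl13 (1.87 ± 0.51 (SE), adjusted p = 0.0424) were higher in 6 of 6 mice, although the groups overlapped. Cxcl14, a ligand made constitutively by normal epidermis, read 1027 to 2457 (median 1295) in CHR, 163 to 972 (median 678) in PAP and 521 to 3505 (median 1609.7) in SCC. It was lower in PAP than CHR (-1.16 ± 0.4 (SE), adjusted p = 0.0204) with no overlap, but the papilloma of mouse 10 was far below the others at 163, and without that library the log2 difference was -0.86 with an adjusted p of 0.053. The call was also lost without mouse 7 (highest adjusted p over the alternatives 0.056). SCC and CHR overlapped for Cxcl14 (0.16 ± 0.4 (SE), adjusted p = 0.786). Cxcl16, the ligand of Cxcr6, which occurs both membrane-bound and shed, was not called in any comparison, with medians of 2185 in CHR, 1453 in PAP and 2296 in SCC.

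6 markers of dermal fibroblasts (Col1a1, Col1a2, Col3a1, Pdgfra, Dcn and Lum) were set beside Cxcl12 and Cxcl13. Their summed normalised reads were 132862 to 298853 (median 207665) in CHR, 4776 to 160352 (median 54840) in PAP and 17028 to 492900.1 (median 227509) in SCC. Against CHR, 4 of 6 (66.7%) were called lower in PAP and 1 of 6 (16.7%) in SCC, beside 28.7% and 21.4% of all genes. No marker was at 0 in any library. Within each lesion both Cxcl12 (21 and 138) and the sum were lowest in mouse 10, but Cxcl12 was highest in mouse 2 among papillomas and in mouse 7 among carcinomas, whereas the sum was highest in mouse 9 and in mouse 2. Cxcl13 too was lowest in mouse 10 in each lesion, but was highest in mouse 8 among papillomas and in mouse 9 among carcinomas. In the papilloma of mouse 9, which had the highest sum, Cxcl13 read 3.59. The part of dermal fibroblasts in the Cxcl12 and Cxcl13 differences was not tested.

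Of 15 inflammatory CC ligands, 9 (60%) were lower in PAP and 5 (33.3%) in SCC, beside 28.7% and 21.4% of all genes. Ccl6 and Ccl9, neighbouring genes on chromosome 11 whose myeloid-derived products act on Ccr1, were the CC ligands with the lowest log2 differences in PAP. Ccl6 (chr11:83587882-83593087) read 2455 to 6197 (median 4764) in CHR, 57.4 to 892 (median 165) in PAP and 213 to 7906 (median 1144) in SCC. Ccl9 (chr11:83572919-83578636) read 1409 to 3542 (median 2816) in CHR, 57.7 to 428 (median 87) in PAP and 176 to 4276 (median 667) in SCC. For both, every PAP library was below every CHR library, with medians 28.9-fold and 32.4-fold lower. The log2 differences in PAP were -4.12 ± 0.62 (SE), adjusted p = 3.25e-05, for Ccl6, and -3.81 ± 0.51 (SE), adjusted p = 1.01e-05, for Ccl9. In SCC both were lower than CHR in 5 of 6 mice (-2.05 ± 0.62 (SE), adjusted p = 0.0157, and -1.77 ± 0.51 (SE), adjusted p = 0.0121). The SCC call was lost without mouse 3, 9 or 10 (highest adjusted p over the alternatives 0.0745) for Ccl6, and lost without mouse 9 or 10 (highest adjusted p over the alternatives 0.0648) for Ccl9. The exception was mouse 7, whose carcinoma held 7906 and 4276 normalised reads, above every CHR library for each gene. Ccl9 was also higher in SCC than PAP in 6 of 6 mice (2.04 ± 0.51 (SE), adjusted p = 0.0351).

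The neighbours of Ccl6 and Ccl9 had smaller differences. On chromosome 11 between 83525778 and 83664683 lie Ccl5, Ccl9, Ccl6, Ccl3 and Ccl4 in this order, with log2 differences in PAP from -4.12 to 0.16. Ccl3, a ligand of Ccr1, and Ccl4 were not called, with medians of 146 in CHR, 145 in PAP and 104 in SCC for Ccl3 and medians of 100.1 in CHR, 111 in PAP and 71.6 in SCC for Ccl4. Ccl5, a T cell and platelet product that binds Ccr1 and Ccr3, read 11.5 to 169 (median 40.1) in CHR, 3.15 to 32.3 (median 12.2) in PAP and 22.8 to 109.7 (median 52.3) in SCC. Papillomas were lower than CHR (-0.7 ± 0.28 (SE), adjusted p = 0.0418) in 6 of 6 mice, a call that limma-voom did not make and that was lost without mouse 2, 3, 7, 8 or 9 (highest adjusted p over the alternatives 0.15).

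The CC ligands of a second cluster (Ccl2, Ccl7, Ccl11, Ccl12, Ccl8 and Ccl1, chromosome 11 between 82035571 and 82305690) differed among themselves too. Ccl12, a mouse ligand of Ccr2, read 126 to 276 (median 233) in CHR, 5.24 to 97.7 (median 36.4) in PAP and 47.5 to 348 (median 116) in SCC. Its level was lower in PAP without overlap (-1.51 ± 0.28 (SE), adjusted p = 0.000259) and not called in SCC against CHR (-0.48 ± 0.28 (SE), adjusted p = 0.19). It was higher in SCC than PAP in 6 of 6 mice (1.02 ± 0.28 (SE), adjusted p = 0.0445). Ccl2, the main monocyte attractant, was not called in any comparison (medians of 386 in CHR, 198 in PAP and 343 in SCC). Ccl7, which shares Ccr2 with Ccl2, narrowly missed the threshold in PAP (-0.88 ± 0.37 (SE), adjusted p = 0.0541), and passed it with the mouse as a block (adjusted p = 0.0179). Ccl8 and Ccl11, the latter an eosinophil attractant acting on Ccr3, were not called, the Ccl8 libraries ranging from 1186 to 29504 within PAP alone.

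Per kilobase of exon, Ccl8 was the most abundant ligand in all 3 groups, with medians of 20267 normalised reads per kilobase in CHR, 23692 in PAP and 17644 in SCC. The next ligand per kilobase was Ccl6 in CHR (2654), and Cxcl9 in PAP (569.7) and SCC (1051).

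Ccl22 and Ccl20 were lower in both lesions, and Ccl17 in PAP. Ccl22, made by dendritic cells and macrophages, read 185 to 540.3 (median 298) in CHR, 12.6 to 253 (median 74.1) in PAP and 20.5 to 88.3 (median 67.5) in SCC. It was lower in PAP (-1.39 ± 0.3 (SE), adjusted p = 0.00101) in 5 of 6 mice and in SCC (-1.64 ± 0.3 (SE), adjusted p = 0.000496) in 6 of 6, with no overlap between SCC and CHR. Ccl17, the other ligand of Ccr4, read 33.3 to 139 (median 53.1) in CHR, 2.1 to 28.8 (median 8.28) in PAP and 5.26 to 167 (median 11.1) in SCC. All papillomas lay below all CHR libraries (-1.07 ± 0.31 (SE), adjusted p = 0.00724), whereas in SCC (-0.75 ± 0.31 (SE), adjusted p = 0.0631, or 0.0391 with the mouse as a block) the carcinoma of mouse 7 at 167 was far above the other 5. Ccl20, which keratinocytes make and which draws Ccr6-bearing cells, read 34.3 to 385 (median 103) in CHR, 2.1 to 205 (median 30.8) in PAP and 11.4 to 38.1 (median 16.6) in SCC. It was lower in SCC in 6 of 6 mice (-1.21 ± 0.35 (SE), adjusted p = 0.0131) and in PAP in 5 of 6 (-0.88 ± 0.35 (SE), adjusted p = 0.046), the PAP call being lost with the mouse as a block (adjusted p = 0.055). Without the CHR library of mouse 10 the PAP difference of Ccl20 was -0.61 (adjusted p = 0.121). The PAP call was also lost without mouse 2, 3, 7, 8 or 10 (highest adjusted p over the alternatives 0.274) and the SCC call lost without mouse 7 (highest adjusted p over the alternatives 0.0524).

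Ccl24, an eosinophil attractant acting on Ccr3 and made by alternatively activated macrophages, read 114 to 296 (median 192) in CHR, 4.31 to 55.6 (median 34.2) in PAP and 18.7 to 1635 (median 44.3) in SCC. Papillomas were lower than CHR without overlap (-1.54 ± 0.54 (SE), adjusted p = 0.0242), and in SCC 5 of the 6 carcinomas lay below all CHR libraries while that of mouse 7 was above them all. The PAP call of Ccl24 was lost without mouse 2, 8, 9 or 10 (highest adjusted p over the alternatives 0.0748). Without the carcinoma of mouse 7, Ccl12, Ccl17 and Ccl24 were called lower in SCC than in CHR too. Ccl1, a T cell product that binds Ccr8, was low everywhere, at 16.3 to 42.7 (median 28.8) in CHR, 4.24 to 34.8 (median 10.2) in PAP and 5.26 to 24 (median 13.2) in SCC. It was lower in PAP (-0.43 ± 0.15 (SE), adjusted p = 0.0187) and SCC (-0.39 ± 0.15 (SE), adjusted p = 0.0412), the calls being lost without mouse 3, 7 or 8 (highest adjusted p over the alternatives 0.0725) in PAP and lost without mouse 2, 3, 7 or 8 (highest adjusted p over the alternatives 0.191) in SCC. Ccl25 and Ccl28, epithelial ligands of mucosal surfaces, were not called by limma, with medians for Ccl28 of 5, 5.75 and 2.22. Only limma-voom with the mouse as a block called Ccl28, higher in PAP than CHR and lower in SCC than PAP.

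The ELR and interferon-induced CXC ligands, which draw neutrophils and T cells respectively, held no lower call. Proximal promoters are shown for the 5 of these genes that have a window, Cxcl3, the one gene called higher, among them. RefSeq (GRCm38.p6) held a promoter window for 35 of the 45 genes. The 250 bases before the start site of the 5 ligands of these classes that have one are printed 5′ to 3′ on the gene's strand, with capitals marking matches, on either strand, to the kappaB-like letters GGGANNTNC (bound by NF-kB proteins in many inflammatory genes) or the interferon-response-like letters GAAANNGAA; matches may overlap.
Cxcl3 (chr5:90785851-90786100, plus strand): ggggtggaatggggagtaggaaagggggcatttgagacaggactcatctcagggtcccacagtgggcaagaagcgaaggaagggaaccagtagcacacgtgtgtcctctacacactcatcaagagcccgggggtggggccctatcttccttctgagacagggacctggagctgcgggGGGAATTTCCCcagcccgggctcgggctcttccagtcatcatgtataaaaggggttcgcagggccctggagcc
Cxcl1 (chr5:90890995-90891244, plus strand): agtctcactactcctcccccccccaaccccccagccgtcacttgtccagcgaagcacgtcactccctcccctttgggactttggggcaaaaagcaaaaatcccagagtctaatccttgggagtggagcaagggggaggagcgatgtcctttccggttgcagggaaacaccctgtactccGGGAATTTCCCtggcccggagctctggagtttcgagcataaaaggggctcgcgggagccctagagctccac
Cxcl2 (chr5:90903649-90903898, plus strand): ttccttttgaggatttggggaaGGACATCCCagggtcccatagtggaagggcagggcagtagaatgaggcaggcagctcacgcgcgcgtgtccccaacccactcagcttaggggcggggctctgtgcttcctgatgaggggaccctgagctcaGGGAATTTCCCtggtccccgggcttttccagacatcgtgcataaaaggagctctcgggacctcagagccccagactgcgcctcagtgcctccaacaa
Cxcl9 (chr5:92328080-92328329, minus strand): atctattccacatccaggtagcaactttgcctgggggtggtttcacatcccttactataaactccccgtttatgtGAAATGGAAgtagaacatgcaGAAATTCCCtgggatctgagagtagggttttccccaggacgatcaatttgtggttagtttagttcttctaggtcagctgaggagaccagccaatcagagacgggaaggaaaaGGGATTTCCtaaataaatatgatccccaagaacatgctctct
Cxcl10 (chr5:92348890-92349139, minus strand): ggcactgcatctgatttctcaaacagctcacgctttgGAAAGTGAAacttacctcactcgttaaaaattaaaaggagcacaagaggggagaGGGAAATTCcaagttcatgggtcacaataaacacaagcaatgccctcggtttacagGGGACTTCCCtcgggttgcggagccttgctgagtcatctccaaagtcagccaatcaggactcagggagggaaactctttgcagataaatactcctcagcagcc

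All 5 windows held kappaB-like letters, and those of Cxcl9 and Cxcl10 also held interferon-response-like letters. Cxcl1, Cxcl2 and Cxcl3 shared the 11-base stretch GGGAATTTCCC, beginning 71, 97 and 73 bases before the start site, and this stretch was found in 14 of 32851 promoter windows of the genome (0.0426%). Among the 35 genes of the family with a window it was in those 3. The kappaB-like letters were present in 12.5% of all windows and in 29.7% of the 37 windows of the family, and the interferon-response-like letters in 7.13% and 18.9%. Another pattern, the STAT-like letters TTCNNNGAA, was in 7.02% and 8.11%. These are matches of letters, not measured binding.

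With limma on all 18 libraries and no block, Cxcl3 was the only member called higher in a lesion than in CHR. It read 11.9 to 79.8 (median 52.6) in CHR, 63.6 to 601 (median 182) in PAP and 21.8 to 402 (median 200.2) in SCC, and PAP was above CHR in 6 of 6 mice. Its median in PAP was 3.45 times that of CHR, although the groups overlapped (1.28 ± 0.44 (SE), adjusted p = 0.0216). The call was lost without mouse 8 (highest adjusted p over the alternatives 0.0723) and under limma-voom with the mouse as a block. In SCC its median was 3.81 times that of CHR, with 1.06 ± 0.44 (SE), adjusted p = 0.068, where it passed the threshold only when mouse 2, mouse 10 or the carcinoma of mouse 10 was left out. Cxcl1 had similar values, 23.9 to 235 (median 63.1) in CHR, 86 to 1238 (median 164) in PAP and 58.2 to 708 (median 226) in SCC, with log2 differences of 1.04 ± 0.49 (SE), adjusted p = 0.0863, in PAP, and 0.94 ± 0.49 (SE), adjusted p = 0.144, in SCC. It was above CHR in 5 of 6 mice in PAP and 4 of 6 in SCC, and the groups overlapped.

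Cxcl2 read 90.3 to 728 (median 287) in CHR, 43.8 to 2471 (median 534) in PAP and 96.6 to 897 (median 300.1) in SCC. Its papillomas spread over the whole range of the other groups (0.72 ± 0.63 (SE), adjusted p = 0.353). Cxcl5, an ELR ligand of epithelium and stroma, had the opposite sign in PAP. It read 70.1 to 492 (median 170.2) in CHR, 5.21 to 489.7 (median 35.1) in PAP and 3.58 to 1002 (median 468) in SCC. In 5 of 6 mice the papilloma was below the CHR sample of the same mouse, and the gene was not called (-1.07 ± 0.65 (SE), adjusted p = 0.181). The papilloma of mouse 2 was the highest papilloma for all 4 ELR ligands described here, Cxcl1, Cxcl2, Cxcl3 and Cxcl5. Cxcl9, Cxcl10 and Cxcl11, ligands of Cxcr3 that lie together on chromosome 5 between 92321347 and 92365485, were not called in any comparison. Cxcl9 read 47 to 5006 (median 1304) in CHR, 339.7 to 3299 (median 1718) in PAP and 456 to 19710.5 (median 3171) in SCC. Cxcl10 read 10.6 to 1613 (median 301) in CHR, 110.1 to 920.3 (median 616) in PAP and 244 to 3222 (median 909) in SCC. Cxcl11 read 1.92 to 746 (median 136) in CHR, 12.7 to 603 (median 185) in PAP and 70.7 to 1591 (median 289) in SCC. Within CHR mouse 10 was lowest and mouse 3 highest for all 3, and within SCC mouse 2 was lowest and mouse 9 highest for all 3. The spread within each group exceeded the differences between the group medians.

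**Figure D3:**
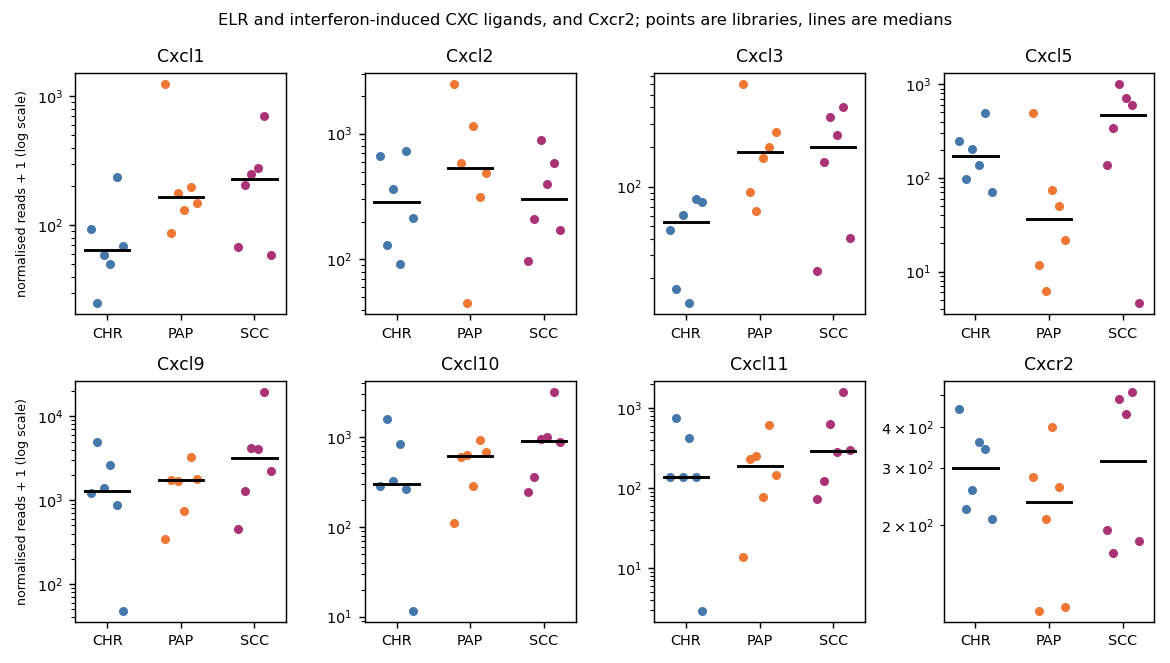
Normalised reads + 1 (log axis) of the 4 ELR ligands, the 3 interferon-induced ligands and the neutrophil receptor Cxcr2 in CHR, PAP and SCC; each point is a library in the order of mouse numbers (2, 3, 7, 8, 9, 10) and lines are medians, n = 6. Only Cxcl3 in PAP against CHR passed the threshold, and the groups overlap in all 8 panels.

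Of the XC and CX3C ligands, Xcl1 was called and Cx3cl1 was not. Xcl1, made by NK and CD8 T cells, was low at 13.4 to 66.6 (median 33.9) in CHR, 4.2 to 10.4 (median 6.38) in PAP and 7.27 to 40.9 (median 18.8) in SCC. It was lower in PAP without overlap (-0.64 ± 0.16 (SE), adjusted p = 0.00307), while in SCC it was not called (-0.24 ± 0.16 (SE), adjusted p = 0.247). Cx3cl1, a membrane-bound ligand of endothelium and epithelium, was not called in any comparison, with medians of 279 in CHR, 255 in PAP and 265 in SCC.

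Receptors were lower in PAP in 10 of 15 cases and in SCC in 7 of 15, while for ligands the counts were 13 and 7 of 30. As shares, receptors were at 66.7% and 46.7% and ligands at 43.3% and 23.3%, beside 28.7% and 21.4% of all genes, and the difference between receptors and ligands was not tested. Ccr2, the monocyte receptor for Ccl2, Ccl7 and Ccl12, read 1319 to 3003 (median 2140) in CHR, 36.7 to 636 (median 285) in PAP and 219 to 1352 (median 954) in SCC, and all papillomas were below all CHR libraries. Its log2 differences were -2.67 ± 0.42 (SE), adjusted p = 4.96e-05, in PAP, and -1.25 ± 0.42 (SE), adjusted p = 0.0271, in SCC. The SCC call was lost without mouse 2, 3 or 8 (highest adjusted p over the alternatives 0.0759) and without the carcinoma of mouse 10 alone. SCC lay above PAP in 6 of 6 mice (1.42 ± 0.42 (SE), adjusted p = 0.0547), a difference that passed the threshold with the mouse as a block (adjusted p = 0.00965). By median, Ccr1, the receptor of Ccl6 and Ccl9, was the receptor with the most reads per kilobase in all 3 groups (322, 181 and 344 normalised reads per kilobase). Its lead in CHR was narrow, with Ccr2 at 317 and Cxcr4 at 312.5. By mean, Cxcr4 (361) was above Ccr1 (330.1) in CHR. Ccr1 was not called (-0.88 ± 0.4 (SE), adjusted p = 0.072, in PAP, and 0.1 ± 0.4 (SE), adjusted p = 0.863, in SCC).

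The 6 receptor genes described on chromosome 9 between 123678439 and 124113557 (Ccr9, Cxcr6, Xcr1, Ccr1, Ccr3 and Ccr2) included 4 of the genes lower in PAP, where 28.7% of all genes were called lower. Ccr1 and Ccr3, the latter the receptor of eosinophils, were the exceptions, and Ccr3 was not called in any comparison (medians of 136 in CHR, 104 in PAP and 92.7 in SCC). 11 markers of monocytes and macrophages, which carry Ccr1 and Ccr2 and make Ccl6 and Ccl9, moved with them. Their summed normalised reads were 44615 to 68480.5 in CHR, 5299.8 to 11797 in PAP and 9748 to 65705 in SCC, and none was at 0 in any library. Against CHR, 8 of 11 (72.7%) were lower in PAP and 6 of 11 (54.5%) in SCC, beside 28.7% and 21.4% of all genes. In SCC against PAP 4 (36.4%) were higher, beside 4.99% of all genes. Cd68, a macrophage lysosomal protein, had a log2 difference of -3.04 ± 0.32 (SE), adjusted p = 8.08e-07, in PAP. The carcinoma of mouse 7 had the highest macrophage sum of the carcinomas, as it had the highest Ccl6, Ccl9 and Ccr1. Ccr2 read 1352 in the carcinoma of mouse 9, whose sum was 14967, and 1350 in that of mouse 7, whose sum was 65705. Among papillomas the sum was highest in mouse 9, whereas Ccl6, Ccl9 and Ccr1 were highest in mouse 2. Among CHR libraries the sum and Ccr1 were highest in mouse 7, but Ccl6 was highest in mouse 3 and Ccl9 in mouse 10. The part of these cells in the differences was not tested.

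Xcr1 and Ccr6, receptors of dendritic and Langerhans lineage cells, were lower in both lesions without overlap. Xcr1, the receptor of Xcl1 on cross-presenting dendritic cells, read 55.7 to 165 (median 106) in CHR, 0 to 16.4 (median 10.9) in PAP and 1.79 to 13.5 (median 6.99) in SCC. CHR overlapped with neither lesion. The medians were 9.71-fold lower in PAP and 15.1-fold lower in SCC, and the log2 differences were -1.43 ± 0.16 (SE), adjusted p = 1.75e-06, in PAP, and -1.51 ± 0.16 (SE), adjusted p = 5.09e-06, in SCC. Ccr6, the receptor of Ccl20 on Langerhans cell precursors, T helper and B cells, read 45.8 to 91.2 (median 55.3) in CHR, 1.05 to 26.4 (median 16.6) in PAP and 6.27 to 30.1 (median 14.8) in SCC. Again there was no overlap (-0.82 ± 0.15 (SE), adjusted p = 0.000189, in PAP, and -0.8 ± 0.15 (SE), adjusted p = 0.000497, in SCC). Ccr7, which guides dendritic cells to lymph nodes, was not called in PAP (-0.49 ± 0.21 (SE), adjusted p = 0.0601) or SCC (-0.53 ± 0.21 (SE), adjusted p = 0.0565), but was with the mouse as a block (adjusted p = 0.0302 and 0.0284). Of 9 dendritic and Langerhans cell markers, 9 (100%) were lower in PAP and 7 (77.8%) in SCC, beside 28.7% and 21.4% of all genes. The marker sums were 22609 to 54142 in CHR, 1664 to 20708 in PAP and 6763 to 32265 in SCC, and Flt3 and Clec9a were at 0 in at least 1 library. Their part in these values was not tested.

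Cxcr3, Ccr4 and Ccr8, receptors found on T cells, were lower in both lesions, and Cxcr6 in PAP. Cxcr3, the receptor of Cxcl9, Cxcl10 and Cxcl11 on effector T and NK cells, read 45.1 to 118 (median 106) in CHR, 2.1 to 21.5 (median 17.2) in PAP and 13.4 to 61.1 (median 36.6) in SCC. PAP did not overlap with CHR, and the level was lower in 6 of 6 mice in each lesion (-1.2 ± 0.17 (SE), adjusted p = 1.66e-05, in PAP, and -0.72 ± 0.17 (SE), adjusted p = 0.00303, in SCC). Cxcr6 read 207 to 592 (median 387) in CHR, 27.3 to 193 (median 116) in PAP and 124 to 343 (median 205) in SCC. It was lower in PAP without overlap (-1.33 ± 0.27 (SE), adjusted p = 0.000576), and not called in SCC (-0.67 ± 0.27 (SE), adjusted p = 0.064), although it passed there with the mouse as a block (adjusted p = 0.00938), without mouse 10, and without the CHR or PAP library of mouse 10 or the carcinoma of mouse 7. Ccr4, the skin-homing receptor for Ccl17 and Ccl22, read 32.8 to 52.8 (median 36.3) in CHR, 2.1 to 39.6 (median 18.1) in PAP and 4.38 to 17.5 (median 13.3) in SCC. It did not overlap between SCC and CHR (-0.61 ± 0.15 (SE), adjusted p = 0.0035), while 1 of 6 mice went the other way in PAP (-0.48 ± 0.15 (SE), adjusted p = 0.0109), where the call was lost without mouse 2 (highest adjusted p over the alternatives 0.0621).

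Ccr8, found on regulatory T cells and binding Ccl1 and Ccl8, read 35.5 to 70.2 (median 49.5) in CHR, 6.29 to 37.1 (median 16.6) in PAP and 9.85 to 45.8 (median 18) in SCC (-0.61 ± 0.14 (SE), adjusted p = 0.00203, in PAP, and -0.52 ± 0.14 (SE), adjusted p = 0.00938, in SCC). Its SCC call was lost without mouse 3 (highest adjusted p over the alternatives 0.0571). Ccr9, the gut-homing receptor of Ccl25, read 111 to 238 (median 163) in CHR, 38.8 to 93.9 (median 69.7) in PAP and 52.6 to 176 (median 102) in SCC. Its level was lower in PAP without overlap (-0.81 ± 0.17 (SE), adjusted p = 0.000697) and in SCC narrowly missed the threshold (-0.44 ± 0.17 (SE), adjusted p = 0.0504, or 0.039 with the block). Cxcr4, carried by most leukocytes, was lower in PAP in 6 of 6 mice (-1.04 ± 0.32 (SE), adjusted p = 0.011), with medians of 565 in CHR, 296 in PAP and 544 in SCC, and SCC overlapped with CHR (-0.04 ± 0.32 (SE), adjusted p = 0.931). Of 14 T and NK cell markers, 13 (92.9%) were lower in PAP, beside 28.7% of all genes. In SCC 10 (71.4%) were lower and 1 (7.14%) higher, beside 21.4% and 15.1% of all genes. The higher one, Gzmb, a granule protease of cytotoxic cells, had an adjusted p of 0.0497, and missed the threshold with the mouse as a block (0.0519) and under limma-voom (0.0781). The marker sums were 1418 to 3031 in CHR, 276 to 897 in PAP and 557 to 1932 in SCC, and Ncr1 was at 0 in at least 1 library. Their part in these values was not tested.

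**Figure D4:**
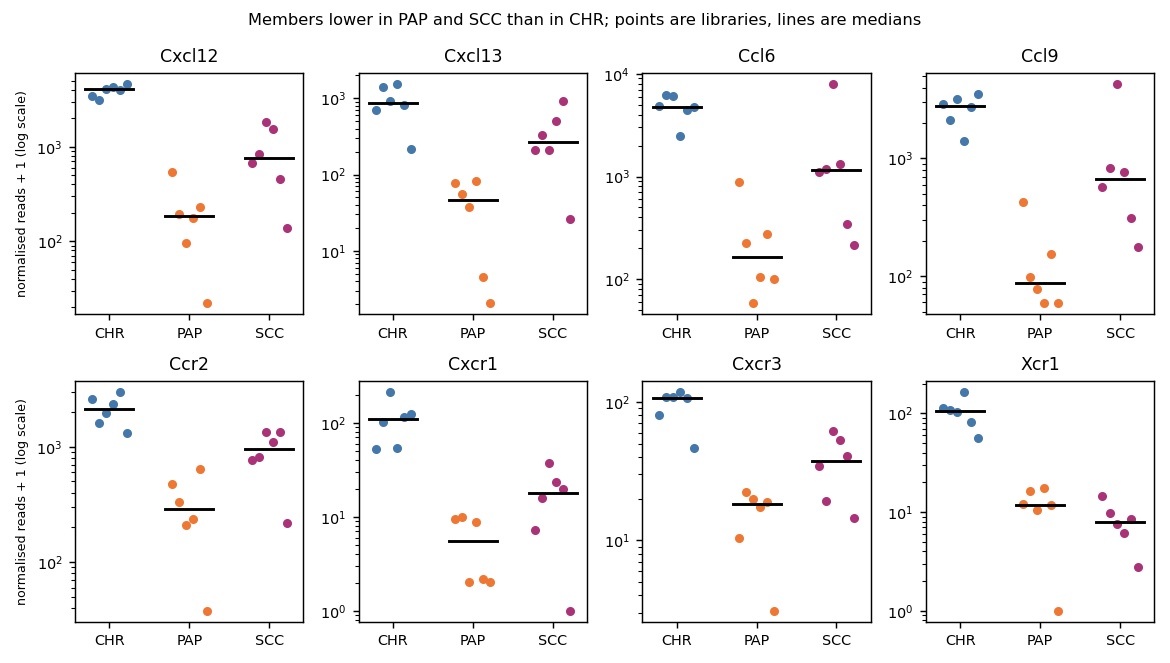
Normalised reads + 1 (log axis) of 4 ligands (Cxcl12, Cxcl13, Ccl6, Ccl9) and 4 receptors (Ccr2, Cxcr1, Cxcr3, Xcr1) called lower in both lesions; each point is a library in the order of mouse numbers and lines are medians, n = 6. In all 8 panels the papillomas lie below all CHR libraries, and in SCC this holds for Cxcl12, Cxcr1 and Xcr1 only.

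The 2 receptors for ELR ligands, which lie side by side on chromosome 1, differed. Cxcr1 read 51.8 to 214 (median 108) in CHR, 1.04 to 8.96 (median 4.48) in PAP and 0 to 36 (median 16.8) in SCC. CHR overlapped with neither lesion, and the median was 24.2-fold lower in PAP and 6.46-fold lower in SCC. The deposited scale compresses such low levels, so that the fitted log2 differences were -1.65 ± 0.22 (SE), adjusted p = 1.08e-05, in PAP, and -1.3 ± 0.22 (SE), adjusted p = 0.000267, in SCC, whereas limma-voom on the recovered reads gave -4.6 and -3.36. Cxcr2, the principal neutrophil receptor for Cxcl1, Cxcl2, Cxcl3 and Cxcl5, read 208 to 453 (median 298) in CHR, 108 to 398 (median 234) in PAP and 163 to 511 (median 314) in SCC. It was not called in PAP (-0.39 ± 0.28 (SE), adjusted p = 0.264) or SCC (0.0 ± 0.28 (SE), adjusted p = 0.996). Of 12 neutrophil markers, 4 (33.3%) were lower and 2 (16.7%) higher in PAP, against 28.7% and 22.8% of all genes. In SCC 1 (8.33%) was lower and 2 (16.7%) higher, against 21.4% and 15.1% of all genes. The 2 higher in each were S100a8 and S100a9 (log2 differences in PAP 2.26 and 2.4, adjusted p = 0.0075 and 0.00597), which keratinocytes also make, and the list summed to 2116 to 8177 in CHR, 4004 to 28554 in PAP and 4338 to 143302 in SCC. In PAP the medians of S100a8 and S100a9 were 9169 and 12673 beside a median sum of 22776. Csf3r, the neutrophil growth factor receptor, was lower in PAP (-1.32 ± 0.47 (SE), adjusted p = 0.0265), and Ngp and Camp were at 0 in at least 1 library. Their part in the Cxcr1 and ELR ligand values was not tested. Cx3cr1, carried by monocytes, macrophages and Langerhans cells, was not called (medians of 254 in CHR, 135 in PAP and 237 in SCC).

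Ligands and their receptors moved together in some cases and apart in others. In PAP, both partners were lower for Cxcl12 and Cxcr4 (-4.07 and -1.04, log2 differences), Ccl12 and Ccr2 (-1.51 and -2.67), Ccl22 and Ccr4 (-1.39 and -0.48), Ccl20 and Ccr6 (-0.88 and -0.82), and Xcl1 and Xcr1 (-0.64 and -1.43). The same held for Ccl17 and Ccr4 (-1.07 and -0.48) and for Ccl1 and Ccr8 (-0.43 and -0.61). Only the receptor was called in PAP for Ccl25 and Ccr9 (0.21 and -0.81) and for Cxcl16 and Cxcr6 (-0.36 and -1.33). Only the ligand was called for Ccl9 and Ccr1 (-3.81 and -0.88) and for Cxcl3 and Cxcr2 (1.28 and -0.39). Neither partner was called for Cx3cl1 and Cx3cr1 or for Ccl11 and Ccr3. In SCC, Cxcl12 was lower while Cxcr4 was at -0.04 and not called. For Cxcl9 and Cxcr3, the receptor was lower in PAP (-1.2) and SCC (-0.72), and the ligand, at 0.22 and 1.28, was not called. Both comparisons share the CHR libraries.

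Genes that clear, process or transmit chemokine signals, and related genes, were lower in PAP in most cases. The counts were 6 of 9 (66.7%) scavengers and related genes and 21 of 27 (77.8%) receptor signalling genes, against 28.7% of all genes. The 9 include the ligands Pf4, called lower, and Ppbp, not called, whose symbols fall outside the rule for the family. Of the 9 scavengers and related genes, 5 (55.6%) were lower in SCC, against 21.4% of all genes. Darc (Ackr1), the venular and red cell scavenger of CC and CXC ligands, had a log2 difference of -1.77 ± 0.18 (SE), adjusted p = 5.24e-07, in PAP. Ackr2 (-1.02 ± 0.16 (SE), adjusted p = 6.18e-05) and Ackr4 (-1.72 ± 0.23 (SE), adjusted p = 7.91e-06), which clear inflammatory and homeostatic CC ligands, were lower too, as was Pf4 (-2.66 ± 0.31 (SE), adjusted p = 2.08e-06), a platelet and macrophage CXC ligand that was higher again in SCC than PAP (1.37 ± 0.31 (SE), adjusted p = 0.0245). Of the 27 receptor signalling genes, 3 (11.1%) were higher in PAP, against 22.8% of all genes. In SCC 13 (48.1%) were lower and 2 (7.41%) higher, against 21.4% and 15.1% of all genes. Leukocyte-restricted ones led the list, among them Rgs1 (-2.81 ± 0.25 (SE), adjusted p = 2.23e-07), which shortens Gi signalling, and Rac2 (-2.49 ± 0.29 (SE), adjusted p = 2.3e-06), a GTPase of migrating blood cells. The widely expressed Rac1 was higher (0.48 ± 0.11 (SE), adjusted p = 0.0017).

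Of 15 cytokine and NF-kB genes that act upstream of chemokine transcription, 2 were higher in PAP, namely Nfkb1 (0.54 ± 0.14 (SE), adjusted p = 0.00378) and Zc3h12a (0.96 ± 0.34 (SE), adjusted p = 0.0268), an RNase that degrades inflammatory transcripts, and 1, Relb, was lower (-0.5 ± 0.17 (SE), adjusted p = 0.02). These were 13.3% and 6.67% of the list, below the 22.8% and 28.7% of all genes. In SCC against CHR limma called 0 higher and 0 lower (1 at an unadjusted p under 0.05, and 0 higher and 0 lower with the mouse as a block). Of all genes, 15.1% were called higher and 21.4% lower in that comparison. Il1b and Tnf were not called in PAP (0.35 and -0.37, log2 differences). Of 14 interferon signalling genes, 4 were lower in PAP and 2 in SCC (28.6% and 14.3%), shares no higher than the 28.7% and 21.4% of all genes. Among those lower in PAP were Irf8, a transcription factor of macrophages and dendritic cells (-1.98 ± 0.35 (SE), adjusted p = 0.000138), and the receptor subunit Ifngr2 (-1.06 ± 0.21 (SE), adjusted p = 0.000527).

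Markers of other skin compartments differed between the tissues as well. For comparison, 28.7% of all genes were called lower and 22.8% higher in PAP, and 21.4% and 15.1% in SCC. All 6 skeletal muscle markers were lower in PAP and 5 of 6 in SCC, with sums of 366414 to 549438 in CHR, 154 to 27326 in PAP and 379 to 185222 in SCC, and Ckm at 0 in at least 1 library. All 6 adipocyte markers were lower in both, with sums of 15240.1 to 29143 in CHR, 67.8 to 979 in PAP and 182 to 4039 in SCC, and 5 of them were at 0 in at least 1 library. All 6 mast cell markers were lower in both lesions (6035 to 11159.6 in CHR, 112 to 1950.3 in PAP and 1444 to 3662 in SCC). Of 3 B and plasma cell markers, 3 were lower in PAP and 2 in SCC (380.1 to 8568 in CHR, 5.24 to 292 in PAP and 40.3 to 3578 in SCC), with Mzb1 at 0 in at least 1 library. Of 3 eosinophil and basophil markers, 3 were lower in PAP and 0 in SCC by limma, where 0 had an unadjusted p under 0.05 and 0 passed with the mouse as a block (139 to 241 in CHR, 29.3 to 88.7 in PAP and 47.4 to 412 in SCC). Of 5 lymphatic endothelial markers, 4 were lower in PAP and 2 in SCC (1628 to 3049.5 in CHR, 705 to 1554 in PAP and 660.3 to 2741 in SCC). Of 6 blood endothelial markers, 3 were lower and 1 higher in PAP and 1 lower and 2 higher in SCC (5588 to 8018 in CHR, 3301 to 5559 in PAP and 4883 to 8134 in SCC). Keratinocyte markers went the other way in part, with 3 of 6 higher (Krt5, Krt14 and Trp63) and 1 lower (Krt10) in PAP, 2 higher and 2 lower in SCC, and sums of 282857 to 641606 in CHR, 374290.2 to 813699 in PAP and 113400.5 to 547399 in SCC. The part of each compartment in the chemokine differences was not tested.

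**Figure D5:**
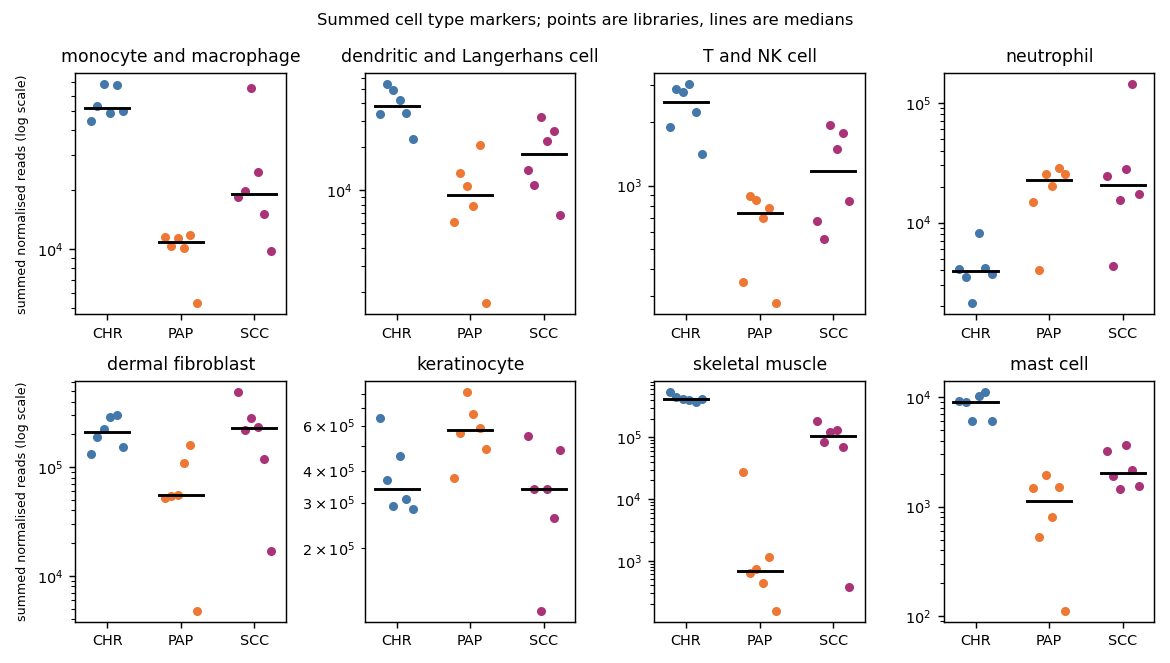
Summed normalised reads (log axis) of the marker lists of 8 cell types in CHR, PAP and SCC; each point is a library in the order of mouse numbers and lines are medians, n = 6. Macrophage, dendritic, T cell and mast cell sums in PAP lie below all CHR libraries, whereas the skeletal muscle sum is at most 27326 in the papillomas and at least 366414 in the CHR libraries.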

How the data were processed

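RNA from 18 tissue samples (CHR, PAP and SCC of 6 mice) was sequenced on the Illumina HiSeq platform. The authors aligned reads to the mouse genome (mm10, which is GRCm38), counted reads per gene with HTSeq, scaled the counts and stabilised their variance with DESeq2. The deposited values are thus a score, on the linear scale of that variance-stabilised form, in which 0 reads appear as 39. A scaling of batch medians is also described by the authors. The annotation release, program versions, strandedness and the treatment of reads shared by overlapping or similar genes were not given in the sources used here. 0 columns were left unmapped.

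The transformation was inverted with a fitted zero level of 39.12. Size factors (0.835 to 1.18) were found from the spacing of low values, where whole reads lie farther apart than the rounding. Of 8581 deposited values from 40 to 60, 100% lay within 0.52 units of a whole read, where 36.5% of the whole numbers in that range do; the size factors were fitted to the same values. This gave the depth of 15.4 to 21.0 M reads. Groups and mouse numbers came from the sample titles. limma 3.58.1 (R 4.3.3) was fitted to log2(value + 1) in all 18 libraries with 1 coefficient per group and no block, and p-values were adjusted over 14521 named genes. It stands in for a count model because the values are transformed. 21 entries without a symbol (at most 0.236% of the deposited total) were left out. Alternatives were limma-voom on recovered reads (also with TMM scaling), log2(normalised reads + 1 or + 5), a minimum mean of 10 reads, the mouse as a block, only the 2 groups compared, and leaving out each mouse. Leaving out the CHR or PAP library of mouse 10 or the SCC library of mouse 7 or 10 was chosen after seeing the data. The fit and the recovery of reads were also run on simulated counts. These had the same spread setting for all genes and no differences between mice, so that run cannot vouch for the fit on these libraries. Same-numbered samples are from the same mouse (Pearson correlation of their deviations from the group means over genes, -0.245 to 0.507).

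Exon lengths and positions are from GENCODE M21 and promoters from RefSeq, both on GRCm38. 1 gene of the family is not reported here, and counts over the family leave it out. Every other gene of the family was accounted for. Values by group were given for genes called in at least 1 comparison and for their ligands or receptors, and up to 4 genes were named from each of 4 pathway lists and 13 cell type lists. The members, lists and alternatives were chosen with earlier results of these data known.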

Additional observations from a re-analysis of the deposited data

Results flagged for a closer look

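For the 24 genes called in at least 1 comparison, the highest and the lowest library of each group was compared with its nearest neighbour (72 groups of 6 libraries, ratio of the gap to the range above Dixon's critical value at 95%). 7 groups held such a library, and chance alone gives about 1 in 20. 3 were the papilloma of mouse 10, which was low for Ccr6 (1.05 normalised reads, next 13.6), Cxcl14 (163, next 598) and Xcr1 (0, next 9.39). The carcinoma of mouse 7 was high for Ccl17 (167, next 13.8) and Ccl24 (1635, next 68.1), and the carcinoma of mouse 10 was low for Ccr2 (219, next 764). The CHR library of mouse 8 was low for Ccl6 (2455, next 4428). Without the papilloma of mouse 10, Ccr6 and Xcr1 were still called lower in PAP than in CHR.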

How the results depend on the processing

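No direction turned in any of the 18 alternatives. Of 42 calls, 24 held in all 18 (17 of 24 in PAP against CHR, 7 of 14 in SCC against CHR, 0 of 4 in SCC against PAP), and the other 18 kept their direction but missed the threshold in at least 1. The number called lower in PAP stayed between 19 and 25. Leaving out mice 1 at a time gave 0 to 2 higher calls in PAP against CHR (0 without mouse 8; Cxcl1 joined Cxcl3 without mouse 9). In SCC against CHR it gave 0 to 2 higher calls (Cxcl1 and Cxcl3 without mouse 2, Cxcl3 without mouse 10 or without its carcinoma alone, 1 call each) and 9 to 15 lower calls. In SCC against PAP the 4 higher calls became 0 under limma-voom, with or without TMM scaling, and 0 with only the 2 groups compared, settings in which 0 of all 14521 genes were called. They became 0 to 10 without a mouse, 0 without the papilloma of mouse 10 or the carcinoma of mouse 7, 2 without the CHR library of mouse 10, and 12 without the carcinoma of mouse 10. With the replicate block (the mouse) they became 8, and 10 with limma-voom, which also called 1 gene, Ccl28, lower. In PAP against CHR, limma-voom with the block called 1 gene higher, Ccl28 in place of Cxcl3. The block moved no other count of calls by more than 1.5 times. The cause of these shifts was not tested. In weakly expressed genes such as Cxcr1 and Xcr1 the depth of 15.4 to 21.0 M reads leaves lesion libraries with few reads or none, so that the size of their decline is poorly known.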
